A study of Rattus norvegicus with 44 samples.

Results

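Kidney expression of 8 genes of retinoid (vitamin A) transport, storage, synthesis and signalling was examined in 44 male obese ZSF1 rats: the carrier Rbp4 and its receptor Stra6, the storage enzymes Lrat and Dhrs3, the synthesis enzymes Aldh1a1 and Aldh1a2, and the receptors Rara and Rarb. The genes were taken by symbol, and each had 1 of the 32883 entries of the deposited expression file. They were selected on measured differences in FPKM between the treatment groups, at least in part, since the list was drawn up with those known. Their differences between groups are therefore given as a description. Calls, intervals and counts past a p threshold only place these genes beside all tested genes, and are not tests of them. The obese ZSF1 rat is an F1 hybrid that carries a different leptin receptor mutation from each parent strain and develops obesity, diabetes and kidney disease. All groups shared this genotype, a telemetry implant and a start of dosing in feed at 22 weeks of age, for 6 months. Vehicle animals (n = 11) received neither drug. Enalapril, an angiotensin-converting enzyme inhibitor, was given at 3 mg/kg/day (n = 9). Compound 1, a stimulator of soluble guanylate cyclase, was given at 1 and later 3 mg/kg/day (n = 12). The Combination group (n = 12) took the same Enalapril dose together with 1 mg/kg/day of Compound 1, so the dose of Compound 1 was not the same with and without Enalapril. No lean or untreated normotensive rats were analysed here, and each library came from a portion of 1 right kidney.

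Retinol leaves the liver bound to retinol-binding protein 4 (RBP4) and transthyretin, is filtered at the glomerulus, and is reclaimed in the proximal tubule by the endocytic receptors megalin and cubilin. STRA6 is a membrane receptor for RBP4. Inside cells, lecithin retinol acyltransferase (LRAT) stores retinol as esters, DHRS3 reduces retinal back to retinol, and the ALDH1A dehydrogenases turn retinal into retinoic acid, which binds RAR and RXR nuclear receptors. RAR and RXR pairs bind direct repeats of a short half-site in DNA, and retinoic acid has long been studied for its roles in kidney development and in podocytes.

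Of the 8 genes, Lrat and Rbp4 had the largest group differences, one in each direction. The 250 bases before their annotated starts are shown because they are the promoter sequences of the genes on which the results turn. Both come from RefSeq on the GRCr8 build, while the expression file was made on rn6, and both are written 5′ to 3′ on the gene's strand, with capitals at the letters TATAA.

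Lrat promoter, chr2:170571213-170571462, minus strand: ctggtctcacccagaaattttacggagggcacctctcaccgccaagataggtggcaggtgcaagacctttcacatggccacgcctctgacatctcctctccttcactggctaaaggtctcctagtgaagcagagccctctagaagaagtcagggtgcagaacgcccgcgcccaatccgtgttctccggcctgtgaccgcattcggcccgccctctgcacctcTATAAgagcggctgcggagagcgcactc

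Rbp4 promoter, chr1:245313552-245313801, minus strand: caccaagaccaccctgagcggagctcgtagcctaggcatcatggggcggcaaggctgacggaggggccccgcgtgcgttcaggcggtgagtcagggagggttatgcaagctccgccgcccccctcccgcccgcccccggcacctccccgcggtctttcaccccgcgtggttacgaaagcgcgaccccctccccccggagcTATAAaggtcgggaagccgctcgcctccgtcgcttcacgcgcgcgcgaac

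TATAA began 28 bases before the start of Lrat and 50 bases before that of Rbp4, and was absent on both strands from the windows of the other 6 genes. It was present on either strand in 26.2% of 33469 RefSeq rat promoter windows, each of 300 bases (250 before the start and 50 after), in which all 8 genes were found. A match in 2 of 8 genes is close to that share, so it does not set Lrat and Rbp4 apart. Only these exact letters were counted, and similar stretches in the other windows were not. The same windows were searched on both strands for direct repeats of the half-site AGGTCA and of its variants AGTTCA as well as GGGTCA as well as GGTTCA with a spacer of 1, 2 or 5 bases. Such a repeat was present in 0.777% of all windows and, among the 8 genes, in that of Rarb alone, where it began 24 bases after the start, with a spacer of 5 bases.

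Rarb direct repeat, chr15:11336416-11336432, plus strand, half-sites in capitals: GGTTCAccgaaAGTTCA

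This repeat of spacer 5 was present in 0.382% of windows. These are letter matches, and no binding was measured.

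Levels are FPKM, sequenced fragments scaled to gene length and library size, which can be compared between genes because they are per length. In Vehicle kidneys the order was Aldh1a1 (199.9 ± 26.3 FPKM, mean ± SD, n = 11), Dhrs3 (43.2 ± 4.57), Rbp4 (32.8 ± 10.8), Rara (30.0 ± 4.93), Stra6 (13.0 ± 1.87), Aldh1a2 (9.22 ± 1.86), Rarb (5.44 ± 0.863) and Lrat (2.61 ± 0.867). The neighbours Rbp4 and Rara lay within each other's SD, and Dhrs3 and Rbp4 overlapped in range. Aldh1a1 was 21.7 times as high as Aldh1a2, and Rara 5.51 times as high as Rarb. Dhrs3 varied least between Vehicle animals (coefficient of variation 10.6%), and Lrat (33.2%) and Rbp4 (33.0%) varied most. The nephron markers Slc34a1 (918 FPKM), Umod (970.3) and Slc12a1 (172) were all present in Vehicle kidneys, which fits the tissue label. Pvalb, from the same marker list as Umod and Slc12a1, was at 0.0149 FPKM. The adrenal marker Star was at 0.338 FPKM. Markers of other tissues were not all low. The hepatocyte marker Alb ran from 1.09 to 94.7 FPKM between Vehicle animals, and the adipocyte marker Adipoq averaged 8.78 FPKM.

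The libraries carry some limits. The depth of each library is unknown, as the methods give a single nominal output and the file holds no counts, but the spacing of the lowest values put the libraries at 0.620 to 1.43 times the median depth. Between 12490 and 13407 entries exceeded 1 FPKM in each library, and 13 mitochondrially encoded genes took 19.8% to 43.4% of all FPKM. Their median share was 27.5% in Vehicle, 30.8% in Enalapril, 30.6% in Compound 1 and 32.4% in Combination, and their part in the differences between groups was tried by removing them. Vehicle animal 1004 stood apart, with a median correlation to the other libraries of 0.927. It was followed by Compound 1 animals 3105 (0.951) and 3001 (0.952), Vehicle animal 1003 (0.959) and Combination animal 4007 (0.960), next to which the others continued without a gap. The fits were repeated without 1003 and 1004 and, separately, without 3001 and 3105, and results whose call changed are given with both values.

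**Figure D1:**
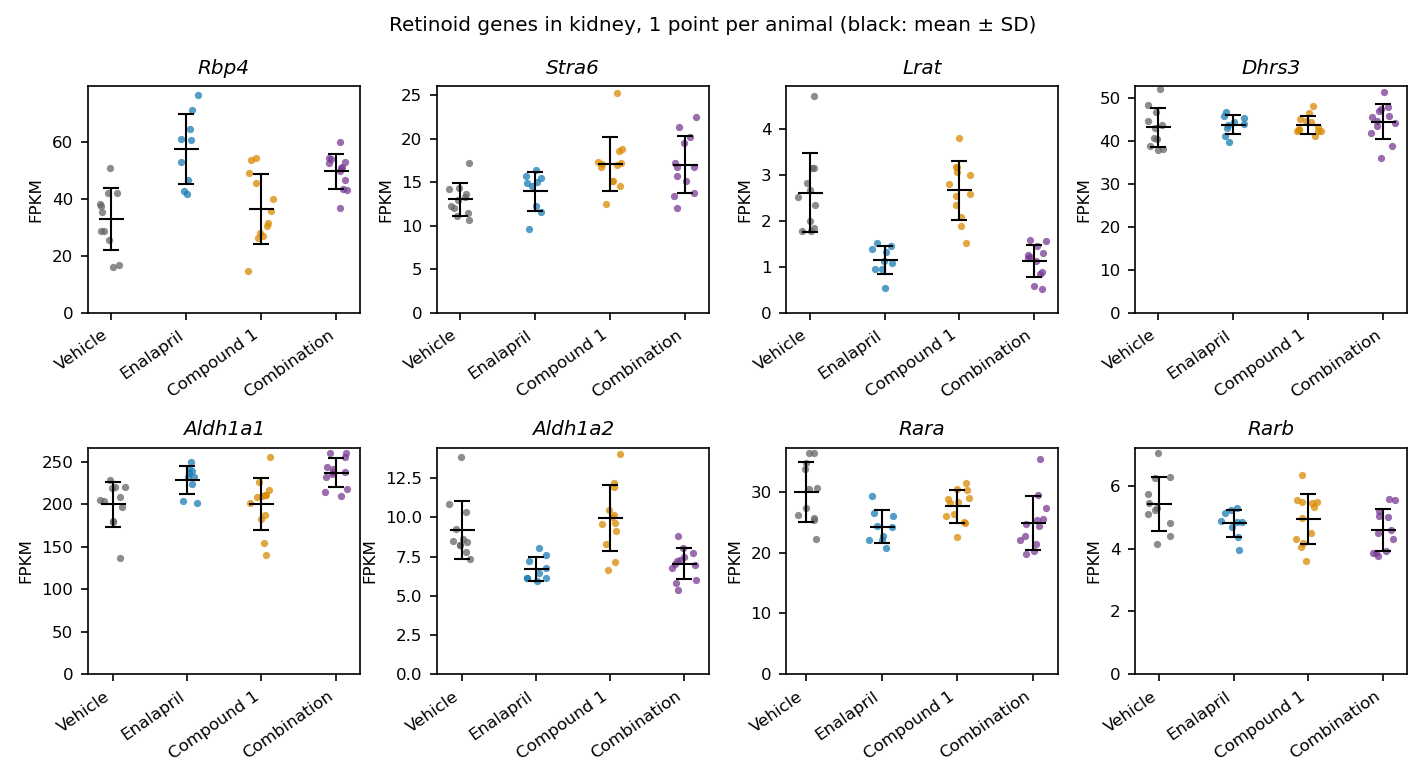
FPKM of each of the 8 retinoid genes in the 4 groups, 1 point per animal, with the mean and SD as black bars and each axis starting at 0. Lrat lies lower in Enalapril and Combination than in every Vehicle animal, Rbp4 lies higher in both groups with overlap, and Dhrs3 stays near 43.2 to 44.5 FPKM on average in all 4.

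Rbp4, the plasma carrier of retinol, was higher in both groups that received Enalapril. In Vehicle its lowest, median and highest values were 16.2, 35.3 and 50.8 FPKM. With Enalapril they were 41.8, 60.7 and 76.5 FPKM. With Compound 1 they were 14.5, 33.6 and 54.2 FPKM. All 9 Enalapril animals lay above the Vehicle median and 6 of them above the highest Vehicle animal, whereas the Compound 1 range covered the whole Vehicle range. In the Combination group the values were 36.9, 51.0 and 60.0 FPKM, with all 12 animals above the Vehicle median and 7 above its highest animal. Mean Rbp4 was 1.75 times Vehicle with Enalapril and 1.51 times Vehicle with the Combination. On the log2(FPKM + 0.1) scale used for all fold changes here, the differences were 0.86 (SE 0.18) and 0.67 (SE 0.15), against 0.14 (SE 0.21) for Compound 1. The lowest Vehicle value belonged to animal 1004. Without animals 1003 and 1004 the Combination difference was 0.46, and no longer past the fold threshold. With the inner medulla marker level as a covariate in the fit it was 0.58 for Enalapril and 0.48 for the Combination, neither of them past the thresholds. Summed inner medulla markers were 111 ± 24.0 FPKM in Vehicle, 92.1 ± 15.6 in Enalapril and 104 ± 23.4 in the Combination. Their level thus differed in mean between groups, and tissue sampling and treatment cannot be told apart in this covariate.

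Stra6, which takes up retinol from RBP4, had its largest differences in the groups that received Compound 1. The lowest, median and highest values were 10.6, 13.0 and 17.3 FPKM in Vehicle and 9.63, 14.9 and 16.4 FPKM in Enalapril. They were 12.5, 17.1 and 25.3 FPKM in Compound 1 and 12.1, 16.8 and 22.5 FPKM in the Combination. In each of the latter groups 11 of 12 animals lay above the Vehicle median and 4 above the highest Vehicle animal, so the ranges overlapped. The log2 fold changes from Vehicle were 0.38 (SE 0.09) for Compound 1, 0.37 (SE 0.10) for the Combination and 0.09 (SE 0.10) for Enalapril. After median-ratio scaling they were 0.46, 0.54 and 0.24 in the same order. None reached the fold of 1.5 used to call a difference.

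Lrat, the enzyme that esterifies retinol for storage, was the gene whose groups separated completely. In Vehicle the lowest, median and highest values were 1.77, 2.52 and 4.72 FPKM. With Enalapril they were 0.527, 1.12 and 1.51 FPKM. With the Combination they were 0.510, 1.20 and 1.58 FPKM. All 9 Enalapril and all 12 Combination animals lay below the lowest Vehicle animal. Such a separation in the lower direction was present in 0.86% of 13482 tested genes for Enalapril vs Vehicle and in 0.66% for Combination vs Vehicle. Compound 1 animals (1.51, 2.69 and 3.79 FPKM) covered most of the Vehicle range. Mean Lrat was 0.437 times Vehicle with Enalapril and 0.430 times with the Combination, and the log2 fold changes were -1.12 (SE 0.18) and -1.16 (SE 0.19), against 0.05 (SE 0.16) for Compound 1. Lrat is near the expression filter, with 6 of 9 Enalapril and 8 of 12 Combination animals above 1 FPKM.

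Dhrs3, which returns retinal to retinol, differed least between the groups on the deposited scale. Its means were 43.2 ± 4.57 FPKM in Vehicle, 43.8 ± 2.21 in Enalapril, 43.8 ± 2.04 in Compound 1 and 44.5 ± 4.15 in the Combination. The 95% interval of the log2 difference ran from -0.09 to 0.15 for Enalapril, from -0.08 to 0.13 for Compound 1 and from -0.08 to 0.17 for the Combination. After scaling each library by its median ratio to the other libraries, the Enalapril difference was 0.18 and that of the Combination 0.22.

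Aldh1a1 and Aldh1a2, which both form retinoic acid, differed in opposite directions in the groups given Enalapril. Aldh1a1, the more abundant of them in kidney, had lowest, median and highest values of 137, 205 and 229 FPKM in Vehicle and 202, 232 and 250.1 FPKM in Enalapril. In the Combination they were 209, 238 and 261 FPKM, with 9 of 12 animals above the highest Vehicle animal. The Compound 1 animals spread from 139.9 to 256 FPKM around a mean close to that of Vehicle. The log2 fold changes were 0.21 (SE 0.08) for Enalapril and 0.26 (SE 0.07) for the Combination. Aldh1a2 was lower, with 7.35, 8.46 and 13.9 FPKM in Vehicle, 5.95, 6.42 and 8.05 in Enalapril and 5.38, 7.12 and 8.83 in the Combination. Of the Enalapril animals, 7 of 9 lay below the lowest Vehicle animal, and of the Combination animals 8 of 12 did. Its log2 fold changes were -0.44 (SE 0.10) and -0.37 (SE 0.09), against 0.10 (SE 0.11) for Compound 1. After median-ratio scaling the differences of Aldh1a1 were 0.36 and 0.43 and those of Aldh1a2 -0.28 and -0.20, for Enalapril and the Combination. The ratio of mean Aldh1a1 to mean Aldh1a2 was therefore 21.7 in Vehicle, 34.1 in Enalapril, 20.2 in Compound 1 and 33.7 in the Combination. Reads of Aldh1a1 may be shared with its close paralog Aldh1a7, which was listed at a Vehicle mean of 0.303 FPKM.

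The retinoic acid receptors differed little. Rara was lower in both groups given Enalapril on every scaling, and the sign for Rarb turned to 0.03 and 0.00 under quantile normalization. Rara had lowest, median and highest values of 22.2, 30.4 and 36.5 FPKM in Vehicle, 20.8, 24.3 and 29.3 in Enalapril, 22.6, 28.3 and 31.5 in Compound 1 and 19.8, 24.6 and 35.4 in the Combination. The ranges overlapped throughout. Its log2 fold changes were -0.29 (SE 0.09) for Enalapril and -0.27 (SE 0.09) for the Combination, beside a median of -0.15 and -0.18 over all tested genes, and were -0.14 and -0.09 after median-ratio scaling. Rarb, whose own gene carries the direct repeat shown above, had means of 5.44 ± 0.863 FPKM in Vehicle, 4.81 ± 0.430 in Enalapril, 4.95 ± 0.804 in Compound 1 and 4.61 ± 0.672 in the Combination. Its log2 fold changes were -0.16 (SE 0.09), -0.14 (SE 0.10) and -0.23 (SE 0.09), in the order Enalapril, Compound 1 and Combination.

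**Figure D2:**
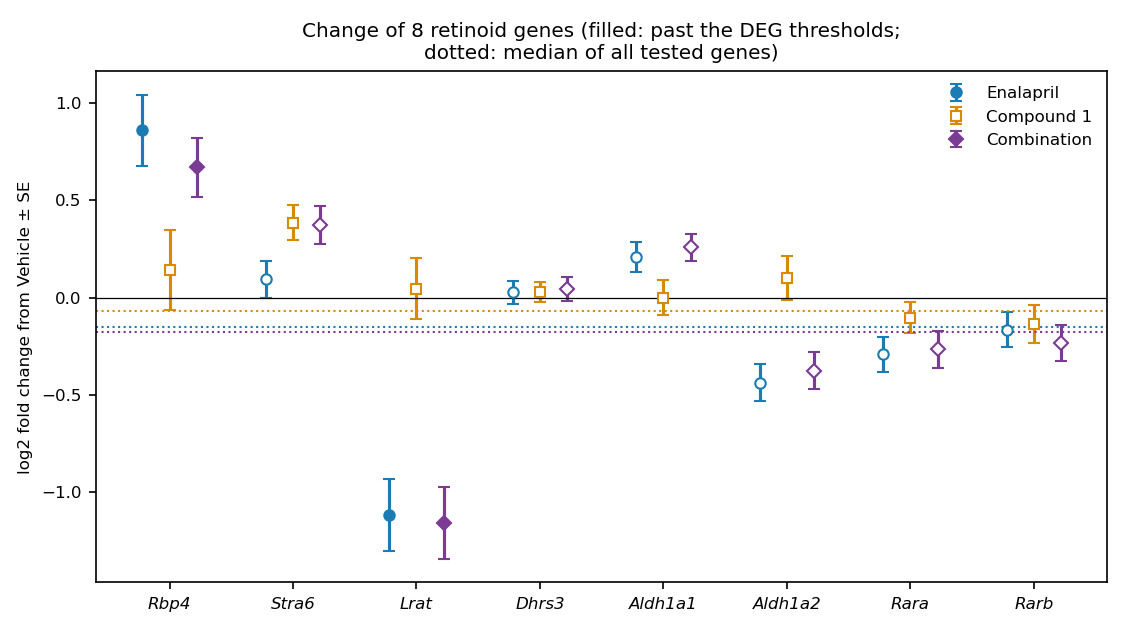
Log2 fold change from Vehicle with its SE for the 8 genes under Enalapril, Compound 1 and the Combination. Filled symbols are past the DEG thresholds (Rbp4 and Lrat, in Enalapril and Combination), and dotted lines mark the median of all tested genes, at -0.15, -0.07 and -0.18.

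A gene was called a differentially expressed gene (DEG) at an adjusted p under 0.05 and a fold above 1.5 or under 0.66. Of the 8 genes, 2 were called for Enalapril vs Vehicle (Rbp4 higher, Lrat lower), beside 4.53% of all tested genes (0.49% higher and 4.04% lower). For Combination vs Vehicle the same 2 were called, beside 7.38% of all genes (0.994% higher and 6.39% lower). For Compound 1 vs Vehicle 0 were called, beside 0.2%, and 1 of the 8 (Stra6) had an unadjusted p under 0.05 by limma, beside 13.3% of all genes. Called genes were lower more often than higher across the whole file, with 66 higher and 545 lower for Enalapril. That split became 205 higher and 164 lower after median-ratio scaling, under which Rbp4 was at 1.01 and Lrat at -0.97 for Enalapril. For the Combination it went from 134 higher and 861 lower to 337 higher and 311 lower, with Rbp4 at 0.84 and Lrat at -0.995. This scaling moved the median of all genes from -0.15 to 0.00 for Enalapril and from -0.18 to -0.01 for the Combination. All 3 comparisons share the Vehicle animals. Because the 8 genes were selected with group differences known, their calls describe them and give no independent support.

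The Combination was also set against each drug alone. Against Enalapril, 0 of the 8 genes were called, beside 0.00742% of all genes, and 1 (Stra6) had an unadjusted p under 0.05 by limma, beside 10.4%. The log2 difference of Lrat was -0.04 with a 95% interval from -0.41 to 0.33, and that of Rbp4 was -0.19 with an interval from -0.55 to 0.17. The largest was that of Stra6, at 0.28 with an interval from 0.07 to 0.49. Against Compound 1, Lrat alone was called, at -1.20 (SE 0.17), beside 2.33% of all genes (2.05% lower), and 10 of 12 Combination animals lay below the lowest Compound 1 animal. Rbp4 differed by 0.53 (SE 0.17), under the fold threshold, and by 0.63 after median-ratio scaling, past it. The interaction term, which asks whether the combined difference departs from the sum of the single ones on the log2 scale, was called for 0 of the 8 genes, beside 0.00742% of all genes, and 0 of them had an unadjusted p under 0.05 by limma, beside 4.29%. For Lrat it was -0.09 (SE 0.25) and for Rbp4 -0.33 (SE 0.25), with 95% intervals from -0.60 to 0.42 and from -0.83 to 0.16. Compound 1 ended at a lower dose in the Combination than alone. In the interaction term and against Compound 1, dose and combination therefore cannot be told apart.

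The rest of the retinoid pathway was described with a wider list of 54 genes, of which 50 were in the file and 40 passed the filter of FPKM above 1 in at least 9 animals. This list was drawn up with earlier results of these data known, so its p-values and calls are descriptive as well. The list held genes of binding and uptake, esters and carotenoids, retinol and retinal redox, retinoic acid synthesis and clearance, receptors with their cofactors, and genes that retinoids are known to induce. Under the filter were Rbp2, Rbp7, Rpe65, Rdh12, Dhrs9, Adh7, Aldh1a7, Cyp26a1, Cyp26c1 and Ret. Using limma with Benjamini-Hochberg adjustment over all tested genes, 1 gene was called for Enalapril vs Vehicle and 1 for Combination vs Vehicle, beside 4.53% and 7.38% of all genes. Compound 1 vs Vehicle, Combination vs Enalapril and the interaction called 0 of the 40. At an unadjusted p under 0.05 by limma these comparisons had 8, 5 and 4 of the 40, beside 13.3%, 10.4% and 4.29% of all genes.

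The gene lower with Enalapril was Bco1, which cleaves beta-carotene to retinal. It fell from 1.34 ± 0.451 to 0.782 ± 0.189 FPKM, a log2 difference of -0.67 (SE 0.20, limma adjusted p = 0.0155). Its values are near the filter, and with a pseudocount of 1 the difference was -0.38 and after median-ratio scaling -0.53, neither of them called. The gene higher with the Combination was Rdh16, a retinol dehydrogenase. Rdh16 rose from 53.0 ± 13.0 to 79.1 ± 8.63 FPKM, a log2 difference of 0.61 (SE 0.11, limma adjusted p = 0.000193), and it also exceeded Compound 1 by 0.77 (SE 0.14, adjusted p = 0.000388 by limma). Without Vehicle animals 1003 and 1004 the first of these was 0.48, under the fold threshold.

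**Figure D3:**
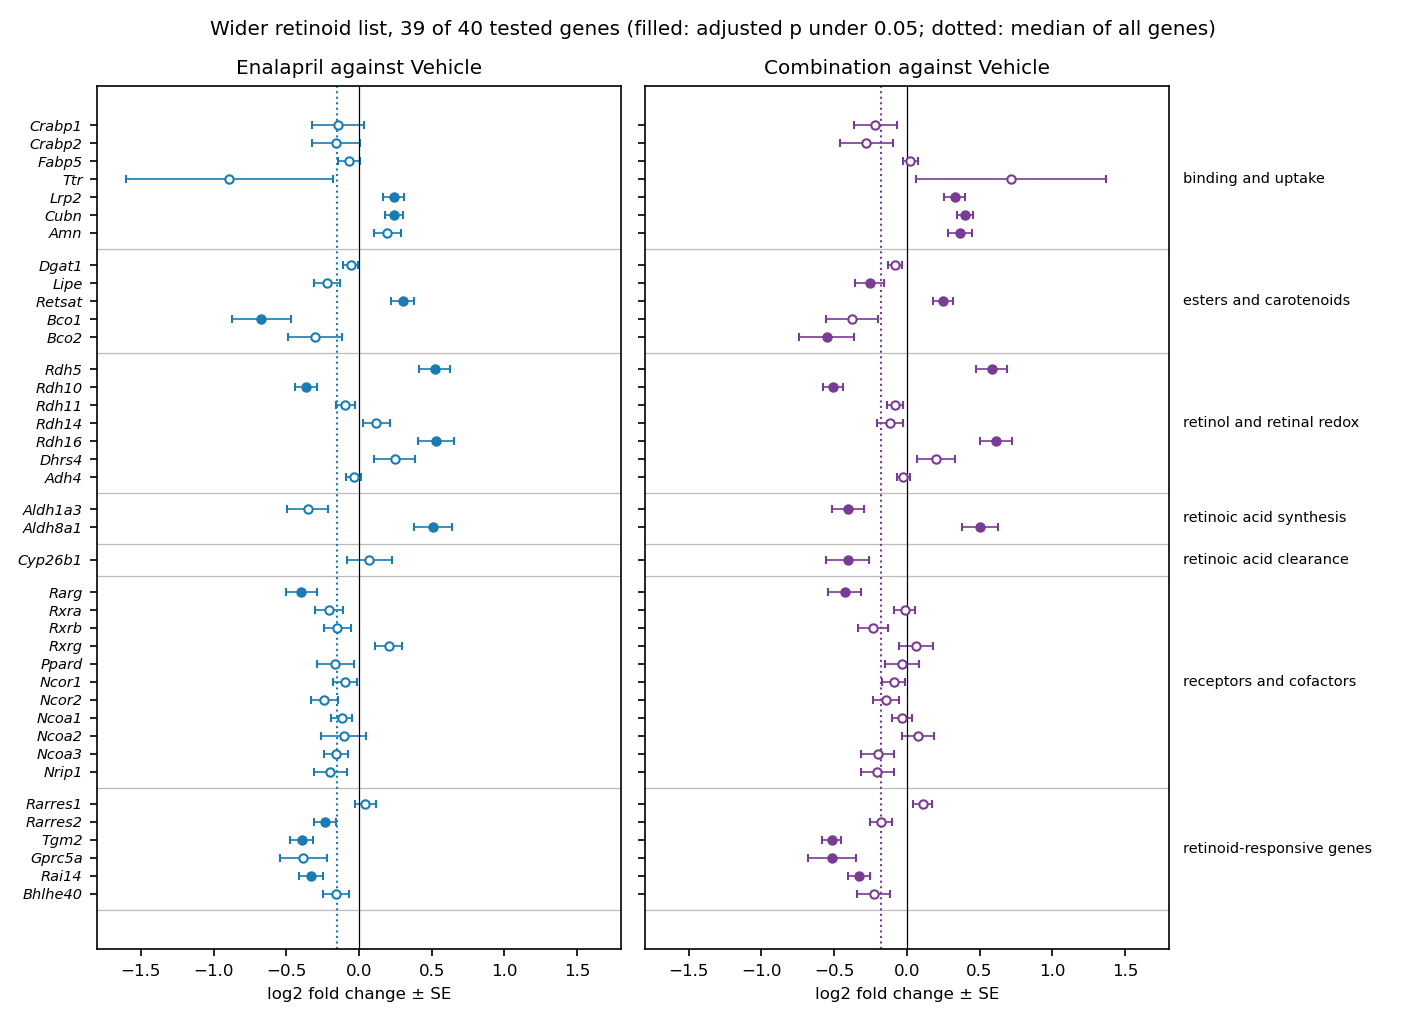
Log2 fold change with its SE for 39 of the 40 tested genes of the wider retinoid list, by role, for Enalapril and for Combination vs Vehicle. Filled points have an adjusted p under 0.05 at any fold (12 and 16 of 40), and dotted lines mark the median of all tested genes.

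At an adjusted p under 0.05 without a fold threshold, 12 of the 40 differed with Enalapril, 6 higher and 6 lower, beside 30.2% of all tested genes. With the Combination 16 differed, 7 higher and 9 lower, beside 45.6% of all genes. The median log2 fold change of the 40 was -0.13 and -0.10, against -0.15 and -0.18 over all genes. The higher genes, which are named here after their values were seen, included the endocytic receptors Lrp2 and Cubn, Retsat, Rdh5, Rdh16 and Aldh8a1 in both comparisons. Rdh5, an 11-cis retinol dehydrogenase, went from 8.93 ± 1.85 FPKM in Vehicle to 12.6 ± 0.647 with Enalapril and 13.2 ± 1.5 with the Combination. The lower genes in both comparisons included Rdh10, which starts retinoic acid formation by oxidizing retinol, the receptor Rarg, and Tgm2. Of the 11 receptors and cofactors, 1 differed in either comparison, and it was Rarg (14.0 ± 3.44 FPKM in Vehicle, 10.4 ± 1.07 with Enalapril, 10.3 ± 2.19 with the Combination).

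Abundant genes of the other roles in Vehicle give the setting for the 8 genes. Retsat, a retinol saturase, went from 188 ± 23.7 to 232 ± 28.3 FPKM with Enalapril (log2 0.30, SE 0.08, adjusted p = 0.00829 by limma). Aldh8a1, placed in the list under retinoic acid synthesis, rose from 107 ± 25.6 to 147 ± 8.73 FPKM (log2 0.51, SE 0.13, adjusted p = 0.00692 by limma). Both stayed under the fold threshold. Cyp26b1, which clears retinoic acid, was at 3.44 ± 0.710 FPKM in Vehicle, 3.69 ± 1.07 in Enalapril, 2.43 ± 0.612 in Compound 1 and 2.63 ± 0.804 in the Combination. Its log2 fold change for Compound 1 was -0.50 (SE 0.13, adjusted p = 0.101 by limma). For the Combination the Cyp26b1 difference was -0.41, with an adjusted p under 0.05 by limma and under the fold threshold. Dhrs4 (86.9 FPKM), Rxra (26.5 FPKM) and Rarres2 (136 FPKM) led further roles, and of these Rarres2 fell by 0.23 on the log2 scale with Enalapril (adjusted p = 0.0257 by limma).

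Covariation among the 8 genes was examined after subtracting each group's mean, so that it does not use the differences between groups. Over 44 animals, 11 of 28 pairs had an adjusted p under 0.05 by permutation within groups, 7 positive and 4 negative. The share of all tested gene pairs that would pass was not computed, so the count does not set these pairs apart. The strongest was between Rbp4 and Aldh1a2, which went in opposite directions (Pearson r = -0.72, Spearman rho = -0.63, permutation adjusted p = 0.00028, the raw p of 1e-05 being the smallest that the permutations can give). Without animals 1004 and 3001, which had the most extreme Rbp4 values, it was -0.68. Rbp4 and Aldh1a1 rose together (r = 0.66, rho = 0.59, permutation adjusted p = 0.00056), and r was 0.46 without the same animals. Dhrs3 and Rara rose together (r = 0.66, rho = 0.59, permutation adjusted p = 0.00028), with r = 0.62 without animals 1001 and 4006. Lrat was negatively related to Rbp4 (r = -0.45, rho = -0.45, permutation adjusted p = 0.0111), with r = -0.47 without animals 1004 and 3001. Stra6 took part in 0 of the 11 pairs. With the inner medulla marker mean regressed out as well, 3 of the 11 pairs remained: Rbp4 with Aldh1a2, Rbp4 with Aldh1a1, and Dhrs3 with Rara. Both Dhrs3 (r = -0.61) and Rara (r = -0.79) fell with the mitochondrial share of FPKM, and the part of that share in their pair was not tested.

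**Figure D4:**
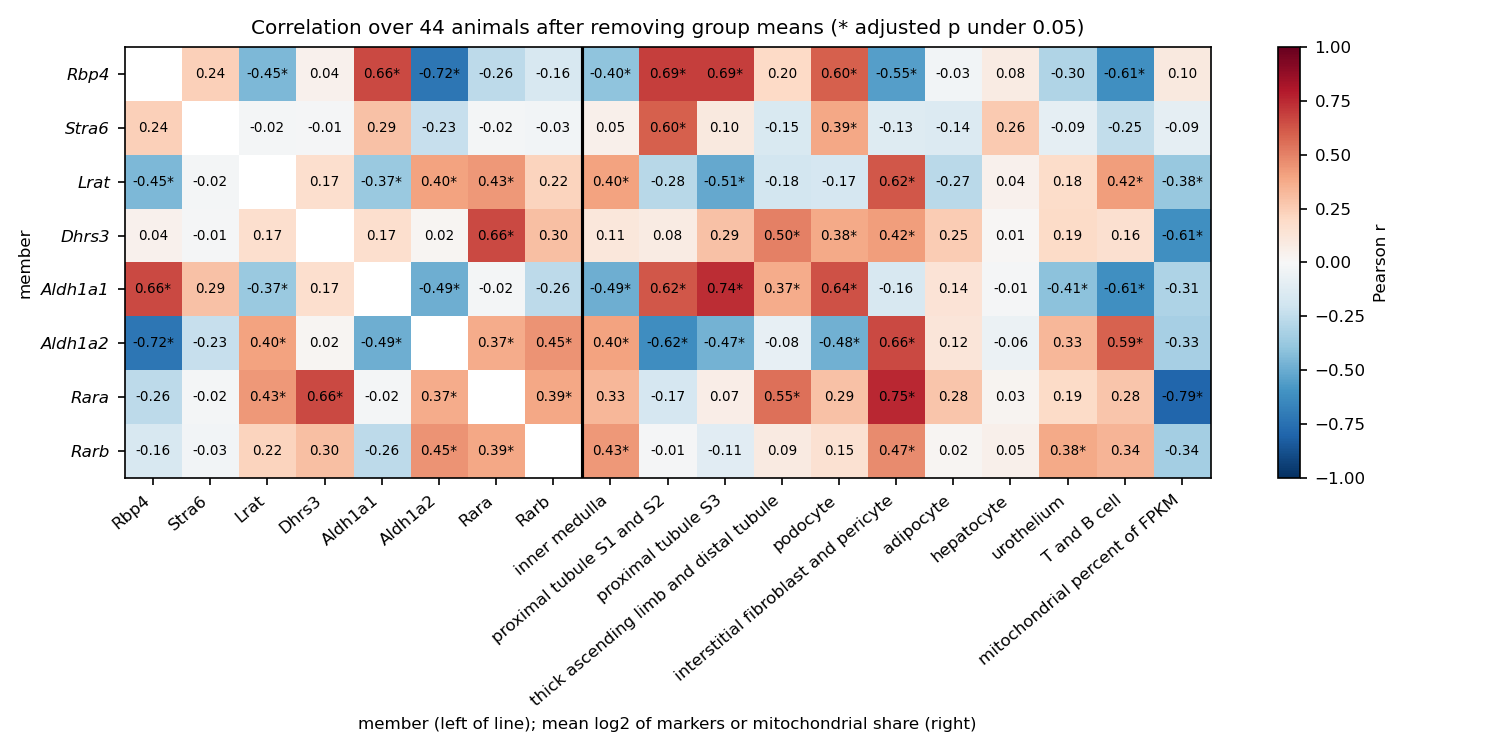
Pearson r over 44 animals after removing group means, among the 8 genes (left of the line) and between them and mean marker levels of kidney and other cell types or the mitochondrial share (right), with asterisks at an adjusted p under 0.05. The strongest pair of members is Rbp4 with Aldh1a2 (-0.72), and the strongest relation to the right of the line is Rara with the mitochondrial share (-0.79).

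Marker levels moved with several of these genes. Of 88 relations between the 8 genes and 11 technical or cell type measures, 36 had an adjusted p under 0.05 by permutation. The share for other genes was not computed, so this count is not particular to the 8. Rbp4 rose with the markers of proximal tubule segments S1 and S2 (r = 0.69, rho = 0.60) and S3 (r = 0.69, rho = 0.67), each with a permutation adjusted p of 0.000196. The former list shares Lrp2 and Cubn with the wider retinoid list. The relation of Rbp4 to hepatocyte markers did not pass the test (r = 0.08, rho = 0.09, permutation adjusted p = 0.712). The liver is the main source of Rbp4 in the body, and the part of any liver RNA in its level here was not tested. Aldh1a1 followed S3 markers (r = 0.74, rho = 0.73, permutation adjusted p = 0.000176). Lrat, Aldh1a2 and Rara each rose with interstitial fibroblast and pericyte markers (r = 0.62, 0.66 and 0.75, rho = 0.58, 0.59 and 0.78, permutation adjusted p = 0.000176 for each). Rara fell with the mitochondrial share (r = -0.79, rho = -0.84, permutation adjusted p = 0.000176), and so did Dhrs3 (r = -0.61, rho = -0.62, permutation adjusted p = 0.000338). All points share the scaling of their library, and without the 2 animals farthest out these r values were 0.59, 0.62, 0.66, 0.61, 0.64, 0.79, -0.82 and -0.58, in the order given and leaving aside the hepatocyte markers. Other relations were of similar size. For Rbp4 they were with podocyte (r = 0.60), T and B cell (-0.61) and fibroblast markers (-0.55). For Aldh1a1 they were with podocyte (0.64), S1 and S2 (0.62) and T and B cell markers (-0.61). Aldh1a2 went with S1 and S2 (-0.62) and T and B cell markers (0.59), and Stra6 with S1 and S2 (0.60). These relations therefore do not place a gene in a particular cell type.

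**Figure D5:**
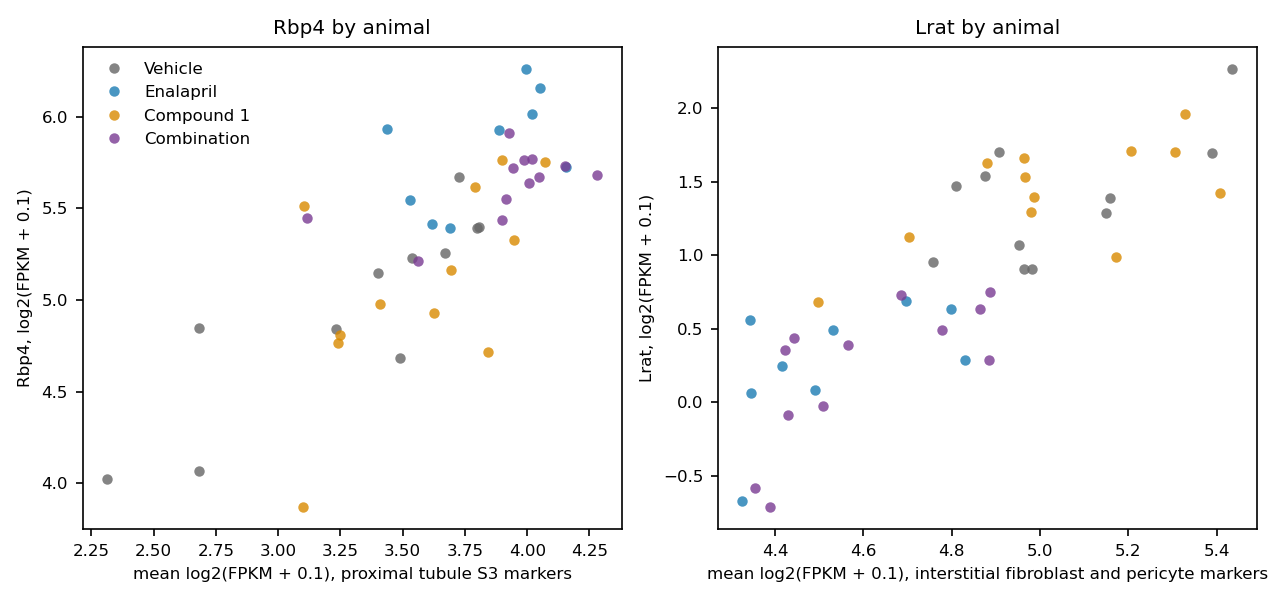
Rbp4 against the mean of proximal tubule S3 markers, and Lrat against the mean of interstitial fibroblast and pericyte markers, as log2(FPKM + 0.1), 1 point per animal. Within groups r was 0.69 for the former and 0.62 for the latter, and the Enalapril and Combination animals lie toward high Rbp4 and low Lrat.

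The same markers differed between the groups. They too were chosen with earlier results of these data known, so their calls and counts are descriptive. The summed level of the 5 fibroblast and pericyte markers was 276 ± 55.1 FPKM in Vehicle (188 to 365), 194 ± 42.7 in Enalapril (141 to 260), 281 ± 55.3 in Compound 1 (184 to 362) and 202 ± 34.2 in the Combination (157 to 258). By limma, 4 of these 5 had an adjusted p under 0.05 with Enalapril and 5 of 5 with the Combination, all lower. That stands beside 30.2% and 45.6% of all tested genes, of which only 22.1% and 22.4% had a positive difference on this scale. In each comparison 1 of the 5 was called, Col1a1, beside 4.04% and 6.39% of all genes called lower. The summed level of the 3 S3 markers was 147 ± 68.1 FPKM in Vehicle (39.7 to 248), 227 ± 49.5 in Enalapril (130.1 to 279), 162 ± 54.0 in Compound 1 (68.8 to 223) and 228 ± 54.4 in the Combination (128 to 286). With Enalapril and with the Combination, 2 of 3 were called higher, beside 0.49% and 0.994% of all tested genes. Slc7a13 made up most of the S3 sum, at 137 FPKM in Vehicle and 217 in Enalapril. Slc22a7 was near the filter, at 0.921 FPKM in Vehicle. Slc5a1 differed little, at 8.39 FPKM in Vehicle and 8.64 in Enalapril (log2 0.04). T and B cell markers summed to 18.2 ± 3.70 FPKM in Vehicle, 11.6 ± 2.07 in Enalapril, 17.3 ± 3.52 in Compound 1 and 12.03 ± 2.82 in the Combination. The part of these marker differences in those of Lrat, Aldh1a2, Rbp4 and Aldh1a1 was not tested. In whole kidney tissue, fewer cells of a type and less RNA of a gene per cell cannot be told apart.

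The genes most like each of the 8 within groups were found over 13481 other tested genes, as a description. Rbp4 was followed most closely by Fah, which acts in tyrosine breakdown (r = 0.89, rho = 0.83), then Cyp2d2 (r = 0.87, rho = 0.85) and Ttc36 (r = 0.86, rho = 0.75). Aldh1a1 was most like Cyp4a2 (r = 0.92, rho = 0.86), Acsm1 (r = 0.91, rho = 0.80) and Cyp4a3 (r = 0.91, rho = 0.79), of which Cyp4a2 and Cyp4a3 are near-identical copies whose reads may be split. Lrat was most like the sterol exporter Abcg1 (r = 0.75, rho = 0.73), Mtap (r = 0.74, rho = 0.71) and Tnfsf10 (r = 0.74, rho = 0.76). Aldh1a2 was most like Plekho1 (r = 0.79, rho = 0.71), Tspan1 (r = 0.77, rho = 0.74) and the elastic fibre protein Efemp2 (r = 0.77, rho = 0.76). Rara was most like the corepressor Tle3 (r = 0.90, rho = 0.89), Ephb4 (r = 0.88, rho = 0.87) and Man1c1 (r = 0.86, rho = 0.87). Stra6 was most like Asl, of the urea cycle (r = 0.69, rho = 0.65), Slc52a2 (r = 0.64, rho = 0.59) and Ptprn (r = 0.62, rho = 0.59). Dhrs3 was most like Tmem204 (r = 0.69, rho = 0.71), Anxa11 (r = 0.68, rho = 0.57) and Agpat3 (r = 0.68, rho = 0.68). Rarb was most like Sema4d (r = 0.69, rho = 0.67), Zfp263 (r = 0.67, rho = 0.66) and Tab1 (r = 0.66, rho = 0.72).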

How the data were processed

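RNA from snap-frozen right kidney was sequenced by the authors (TruSeq stranded mRNA libraries, 1 per animal), and the deposited file gives FPKM per gene for 44 animals on the rn6 build. The sources used here do not name the aligner or annotation, and FPKM keeps no read count per library. The members, the wider list and the markers were chosen with earlier results of these data known. Named were all 8 members, wider-list genes called in a comparison, the most abundant wider-list gene of each role, and the 3 genes most correlated with each member, and some results are not reported here. The 13482 of 32883 entries that exceeded 1 FPKM in 9 or more animals were tested with limma 3.58.1 (R 4.3.3, mean-variance trend) on log2(FPKM + 0.1), with Benjamini-Hochberg adjustment over all tested genes. The study's own tests were run on counts. Each treatment was fitted with Vehicle, and the comparisons with the Combination and the interaction used all 4 groups. Correlations of group-centred values used 100000 permutations within groups (Python 3.11.15, numpy 2.4.6), adjusted over 28 or 88 relations. The scripts were tested on simulated data. Alternatives were other pseudocounts, filters, scalings, an inner medulla covariate, sample weights, subsets of animals and each animal left out. Animal numbers took the place of replicate numbers, and no 2 libraries were identical. Promoters came from RefSeq (GRCr8).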

Additional observations from a re-analysis of the deposited data

How the results depend on the processing

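No paired analysis was possible because each animal was in 1 group and the groups share no replicate numbers. No direction of a called gene was reversed. Of the 8 genes, 2 were called for Enalapril vs Vehicle, but 1 under a filter of FPKM above 5, which leaves Lrat out of the test, and 1 with the inner medulla covariate, which ends the call of Rbp4. For Combination vs Vehicle, 2 became 1 with that filter, with that covariate, with sample weights (Rbp4 at 0.54) and without Vehicle animals 1003 and 1004. For Combination vs Compound 1, 1 became 0 with the filter and 2 with median-ratio scaling, with sample weights and without the 5 animals 2103 and 3102 to 3105, since Rbp4 then passed. Lrat was called in all these comparisons under each alternative that tested it, from -1.18 to -0.73 for Enalapril and from -1.23 to -0.75 for the Combination. In the wider list, 1 call for Enalapril became 0 with a pseudocount of 1, the filter of 5 or the covariate, 2 with quantile normalization and 3 with median-ratio scaling or with mitochondrial genes removed (Rdh5, Rdh16 and Aldh8a1 in place of Bco1). The 1 call for the Combination became 0 with the covariate, with sample weights or without 1003 and 1004, 2 with no filter or quantile normalization, and 3 with a pseudocount of 0.01, median-ratio scaling, mitochondrial genes removed or without the 6 animals listed last. For Combination vs Compound 1, 1 became 0 with the covariate and 2 with no filter, median-ratio scaling or quantile normalization. Leaving out each animal in turn gave 1 to 2 of the 8 genes for Combination vs Vehicle (1 without 1003 or without 1004) and for Combination vs Compound 1 (2 without 3104 or without 3011), and 0 to 3 of the wider list for Combination vs Vehicle, where Rdh16 was no longer called without 1003 (0.54), 1004 (0.56) or 4012 (0.58). The other counts did not move. Correlated pairs went from 11 to 3 with the inner medulla mean regressed out. Over all genes, the 611 calls for Enalapril ranged from 92 with the covariate to 762 without the 5 animals, and the 995 for the Combination from 440 with a pseudocount of 1 to 1270 with no filter. For Compound 1 vs Vehicle 27 calls ranged from 12 with the filter of 5 to 79 with the covariate, for Combination vs Compound 1 314 ranged from 60 with the covariate to 502 without the 6 animals listed last, for Combination vs Enalapril 1 ranged from 0 to 18, and for the interaction 1 ranged from 0 to 2. Without Compound 1 animals 3001 and 3105, an alternative chosen after seeing the data, Compound 1 vs Vehicle had 45 calls over all genes and Combination vs Compound 1 had 195, with Lrat and Rdh16 (0.59) still called in the latter. The cause of these changes was not tested.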
